A study of Homo sapiens with 6 samples.

Results

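Transcripts were measured by RNA sequencing in 2 groups of U251, a glioblastoma cell line of human origin. Both groups were stable lines made with lentivirus and selected with puromycin: 3 samples carried a non-targeting short hairpin RNA (sh-NC, labelled NC) and 3 samples a short hairpin RNA against TRAF2 (sh-TRAF2, labelled KD). No TNF-α or other agent is named for these samples. The samples are described as biological replicates, but not whether they came from separate transductions or from repeat cultures of 1 line, so a difference between the groups and a difference between the stable lines cannot be told apart. The values below are for 9 genes of sphingosine-1-phosphate (S1P), taken by symbol from the 23002 genes of the expression table: the receptors S1PR1, S1PR2, S1PR3 and S1PR5, the kinases SPHK1 and SPHK2, the lyase SGPL1, the phosphatase SGPP1 and the exporter SPNS2. Levels are FPKM (fragments per kilobase of transcript, scaled to sequencing depth), and the samples held between 33999558 and 36823562 reads on genes, recovered from the FPKM values.

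S1P is a signalling lipid made inside cells when a sphingosine kinase adds a phosphate to sphingosine, the backbone that ceramidases release from ceramide. It is either split for good by the lyase SGPL1, returned to sphingosine by phosphatases such as SGPP1, or carried out of the cell, where it binds a family of G protein-coupled receptors that steer migration, survival and barrier function. TRAF2 is an adaptor of TNF receptors, SPHK1 was described as a TRAF2-binding protein, and S1P has been proposed as a cofactor of the ubiquitin ligase activity of TRAF2, which is the reason to look at these genes after TRAF2 knockdown. Messenger RNA levels do not measure the lipid itself, the enzymes' activity or receptors at the cell surface.

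The hairpins decide what was lowered, so their target sequences are shown first. The study lists 2 targets of 21 bases in TRAF2 and does not name which of them the sequenced samples carried.

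sh-TRAF2#1 target: cccttgcagattccacgccat
sh-TRAF2#2 target: ctggaccaagacaagattgaa

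Both targets match TRAF2 transcripts over their whole length in GENCODE release 29 (GRCh38). None of the 9 S1P genes shares more than 10 bases in a row with either target. The longest run lay in S1PR3, 10 bases of the sh-TRAF2#1 target, and 6.23% of the 11418 tested genes with matched transcripts hold a run at least as long. SGPL1, the lyase, shares 9 bases with each target, and 22.7% (sh-TRAF2#1) and 26.2% (sh-TRAF2#2) of those genes hold runs at least as long. These percentages take no account of where a run lies in the target or the transcript. In SGPL1, the run shared with sh-TRAF2#1 spans positions 13 through 21 of the target as printed, so it reaches the final base of that target. The run shared with sh-TRAF2#2 spans positions 7 through 15. Whether either run lowered SGPL1 was not tested. S1PR1 shares 7 bases with sh-TRAF2#1 and 8 with sh-TRAF2#2, runs that 92.2% and 65.5% of tested genes reach. The S1PR3 and SGPL1 sites are shown with the shared bases in capitals. The first is at chr9:88993962-88993971, after the coding part of a transcript's exon 3, the next at chr10:70879350-70879358, after the coding part of exon 15, and the last at chr10:70854711-70854719, in the coding part of exon 5 of the same SGPL1 transcript.

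S1PR3, shared with sh-TRAF2#1: ctcttcggCCTTGCAGATgccgctcc
SGPL1, shared with sh-TRAF2#1: ctagctggCCACGCCATtcagggct
SGPL1, shared with sh-TRAF2#2: gtaagattCAAGACAAGttgaacaa

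TRAF2 itself checks the labels. Its FPKM was 15.1, 18.4 and 15.3 in sh-NC replicates 1, 2 and 3 and 3.26, 3.22 and 3.33 in sh-TRAF2 replicates 1, 2 and 3. Every sh-TRAF2 sample was below every sh-NC sample, and the mean fell by 79.9% (log2 fold change -2.27, standard error 0.079, adjusted p = 1.16e-06 from limma). The adjusted p-values come from limma on log2(FPKM + 0.1), with Benjamini-Hochberg adjustment over the 11870 genes whose mean FPKM was at least 0.5. All fold changes given as log2 are of FPKM + 0.1, and for low genes this makes them smaller. In a bulk sample, fewer cells expressing a gene and less of its RNA per cell cannot be told apart.

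Of the 9 S1P genes, 7 had a mean FPKM of at least 0.5 and were tested, while S1PR5 and SPNS2 were below that filter. The receptor S1PR1 and the kinase SPHK1 rose and the lyase SGPL1 fell. These 3 genes make 42.9% of those tested, beside 44.6% of all 11870 genes with an adjusted p under 0.05, so the number that changed is near the background of this experiment. In all, 23.7% of genes were higher and 20.9% lower by that call, and the groups did not overlap for 55.5% of genes and for 3 of the 7 S1P genes. Size set S1PR1 apart from the other members: it alone among the 7 also had a log2 fold change above 1, the thresholds used by the study, which 0.986% of all genes met in the higher direction. The median log2 fold change was -0.03 over the 7 genes and 0.02 over all tested genes.

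**Figure D1:**
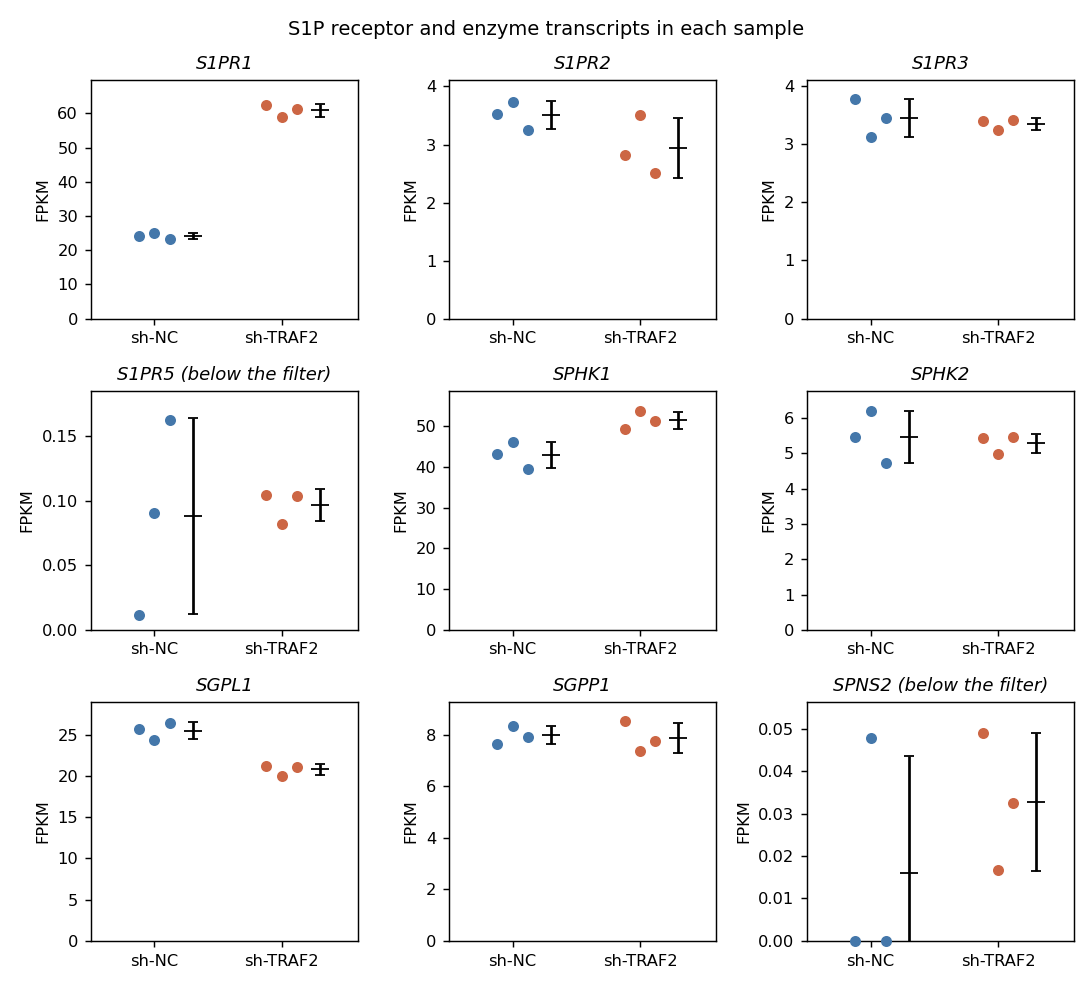
FPKM (vertical axes, linear, from 0) of the 9 S1P genes in the 3 sh-NC and 3 sh-TRAF2 samples; points are samples in replicate order and black bars are the mean ± SD, cut off at 0 for SPNS2. The groups separate for S1PR1, SPHK1 and SGPL1 and overlap for the other genes.

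S1PR1, the receptor that couples to inhibitory G proteins and activates Rac, was the receptor that rose. Its FPKM was 24.2, 25.1 and 23.3 in the sh-NC samples and 62.4, 58.9 and 61.4 in the sh-TRAF2 samples. All 3 sh-TRAF2 values lay far above the highest sh-NC value, and neither group spread widely. The mean went from 24.2 ± 0.894 to 60.9 ± 1.81 (SD, n = 3), a 2.52-fold rise. The log2 fold change was 1.33 (95% interval 1.23 to 1.43, standard error 0.043, adjusted p = 8.61e-07 from limma). These levels rest on 2477 to 2575 recovered reads per sh-NC sample and 5799 to 6233 per sh-TRAF2 sample. Among the 11870 tested genes S1PR1 was rank 39 by size of rise and rank 9 by p, and among all 23002 genes its mean level moved from rank 2546 to rank 1085. Leaving out any 1 sample gave a log2 fold change of 1.30 to 1.35. The gene lies at chr1:101236865-101243713 on the plus strand and no exon of another GENCODE gene overlaps it.

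**Figure D2:**
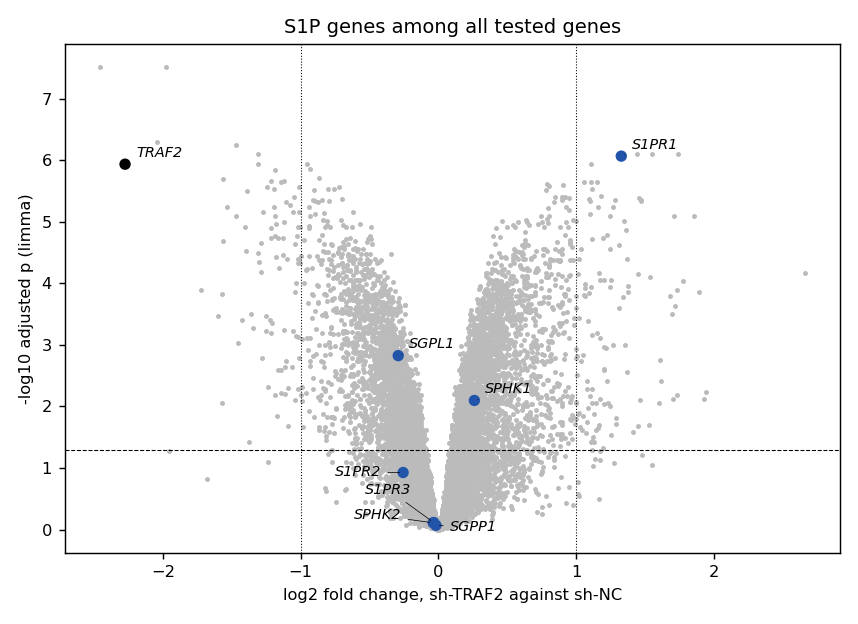
Each grey point is 1 of 11870 tested genes, with the log2 fold change of FPKM + 0.1 (sh-TRAF2 against sh-NC) on the horizontal axis and -log10 of the adjusted p on the vertical axis; dashed and dotted lines mark an adjusted p of 0.05 and log2 fold changes of -1 and 1. S1PR1 (1.33) sits among the strongest rises, TRAF2 (black) among the strongest falls, and the other 6 tested S1P genes lie between -0.29 and 0.26.

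S1PR2, a receptor known to restrain cell migration, did not pass the test. Its FPKM was 3.52, 3.74 and 3.26 in sh-NC and 2.82, 3.51 and 2.50 in sh-TRAF2. Replicate 2 of sh-TRAF2 lay inside the sh-NC range and the other two lay below it. The log2 fold change was -0.26 (95% interval -0.53 to 0.02, adjusted p = 0.118 from limma). Without sh-TRAF2 replicate 2 it was -0.39 and passed (adjusted p = 0.019 from limma). A small part of its exons, 2.28% of bases, is shared on the same strand with DNMT1.

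S1PR3, which couples to several classes of G protein, was measured at 3.77, 3.11 and 3.44 FPKM in sh-NC and at 3.40, 3.23 and 3.42 in sh-TRAF2. The sh-TRAF2 samples lay within the sh-NC range. Its log2 fold change of -0.03 (95% interval -0.22 to 0.16, adjusted p = 0.767 from limma) leaves room for a change of up to 0.22 downwards, and it was 0.033 without sh-NC replicate 1. S1PR5, known from oligodendrocytes and natural killer cells, was close to the detection limit, with 1, 8 and 15 recovered reads in sh-NC and 9, 7 and 9 in sh-TRAF2. The totals of 24 and 25 reads leave no difference that could be detected at this depth, and its FPKM reached at most 0.163. The remaining receptor of the family, S1PR4, is not among the 9 genes and had 0 or 1 read in each sample.

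With the other receptors at low levels, the summed FPKM of the 4 receptors went from 31.2 ± 0.968 to 67.3 ± 1.505 (SD, n = 3). S1PR1 made 76.8%, 78.3% and 77.2% of that sum in the sh-NC samples and 90.8%, 89.6% and 91.1% in the sh-TRAF2 samples. The groups did not overlap, and the mean share was 13.0 percentage points higher (exact permutation test, two-sided, p = 0.1, which is as low as 3 samples against 3 can reach). The share of S1PR2 went from 11.2% ± 0.435 to 4.39% ± 0.853 and that of S1PR3 from 11.03% ± 1.16 to 4.98% ± 0.0798 (SD, n = 3; p = 0.1 for each in the same exact test). Shares sum to 100%, so a higher share of S1PR1 lowers the others by construction. S1PR5 held at most 0.54% of the receptor sum in any sample.

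**Figure D3:**
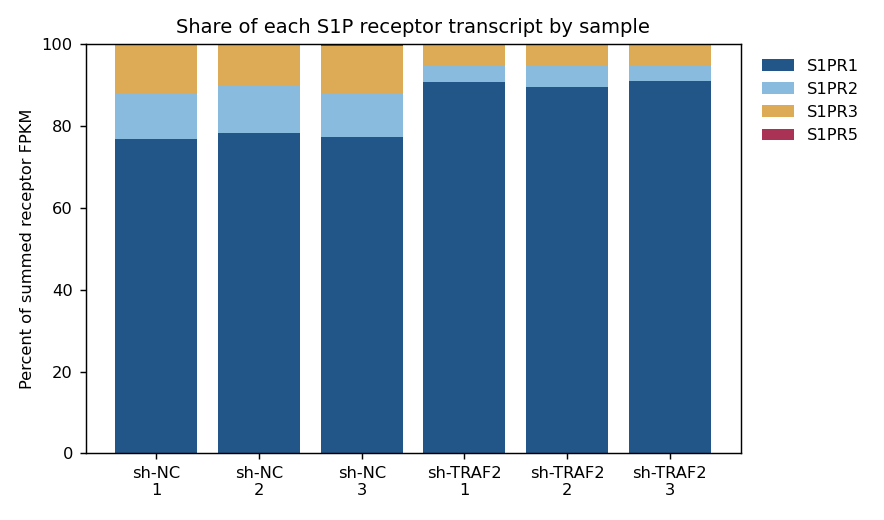
Stacked bars give the percent of the summed FPKM of S1PR1, S1PR2, S1PR3 and S1PR5 held by each receptor in each of the 6 samples (vertical axis 0 to 100%). S1PR1 holds 76.8 to 78.3% in sh-NC and 89.6 to 91.1% in sh-TRAF2.

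SPHK1, the mostly cytosolic sphingosine kinase, rose by a smaller amount. Its FPKM was 43.2, 46.1 and 39.6 in sh-NC and 49.4, 53.7 and 51.3 in sh-TRAF2. The groups did not overlap, but the lowest sh-TRAF2 value was close to the highest sh-NC value. The mean went from 43.0 ± 3.28 to 51.4 ± 2.13 (SD, n = 3), a 1.20-fold rise. The log2 fold change was 0.26 (95% interval 0.13 to 0.40, standard error 0.060, adjusted p = 0.00798 from limma), and it stayed between 0.20 and 0.31 when any 1 sample was left out. The call rests on 4001 to 4490 reads per sh-NC sample and 4680 to 5009 per sh-TRAF2 sample. SPHK1 lies at chr17:76376584-76387860 on the plus strand, and 1.34% of its exon bases face PRPSAP1 on the other strand.

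SPHK2, the kinase found largely in the nucleus and mitochondria, showed no such rise. Its FPKM was 5.46, 6.20 and 4.72 in sh-NC and 5.43, 4.97 and 5.46 in sh-TRAF2. The sh-TRAF2 values lay inside the sh-NC range. The log2 fold change was -0.04 (95% interval -0.26 to 0.19, adjusted p = 0.774 from limma), and it ran from -0.14 to 0.06 when 1 sample was left out. Exons of other genes on the other strand, among them RPL18 and DBP, cover 22.3% of its exon bases, and since the use of strand in counting is not given in the sources used here, its level is uncertain. The log2 ratio of SPHK1 to SPHK2 FPKM went from 2.98 ± 0.0864 to 3.28 ± 0.132 (SD, n = 3), a ratio of 7.90 against 9.73, with no overlap between the groups (exact permutation p = 0.1).

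SGPL1, the lyase of the endoplasmic reticulum that splits S1P for good, was the member that fell. Its FPKM was 25.7, 24.4 and 26.4 in sh-NC and 21.2, 20.03 and 21.1 in sh-TRAF2. Every sh-TRAF2 sample was below every sh-NC sample. The mean went from 25.5 ± 1.02 to 20.8 ± 0.667 (SD, n = 3) and so fell by 18.4%. The log2 fold change was -0.29 (95% interval -0.40 to -0.18, standard error 0.047, adjusted p = 0.0015 from limma), with a range of -0.32 to -0.26 over the fits without 1 sample. It had 5357 to 6025 reads per sh-NC sample and 4224 to 4553 per sh-TRAF2 sample. SGPL1 lies at chr10:70815961-70881173 on the plus strand, free of overlap with exons of other genes, and its shared runs with the hairpin targets are those printed above.

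SGPP1, the phosphatase of the endoplasmic reticulum that turns S1P back into sphingosine, was measured at 7.66, 8.35 and 7.92 FPKM in sh-NC and at 8.53, 7.37 and 7.77 in sh-TRAF2. The groups overlapped. Its log2 fold change of -0.02 (95% interval -0.17 to 0.14, adjusted p = 0.852 from limma) changed sign when replicate 2 of either group was left out. SPNS2, the S1P exporter best known from endothelial cells, was listed at 0, 0.0477 and 0 FPKM in sh-NC and at 0.0491, 0.0166 and 0.0325 in sh-TRAF2. These values stand for 3 reads in all in sh-NC and 6 in sh-TRAF2, or a multiple of them, since the reads are the smallest whole numbers that give the FPKM. On these smallest counts, 3 reads would be worth 0.046 to 0.0498 FPKM in these samples, and a multiple would make that limit lower. No fold is given, and no difference was detectable on these counts.

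**Figure D4:**
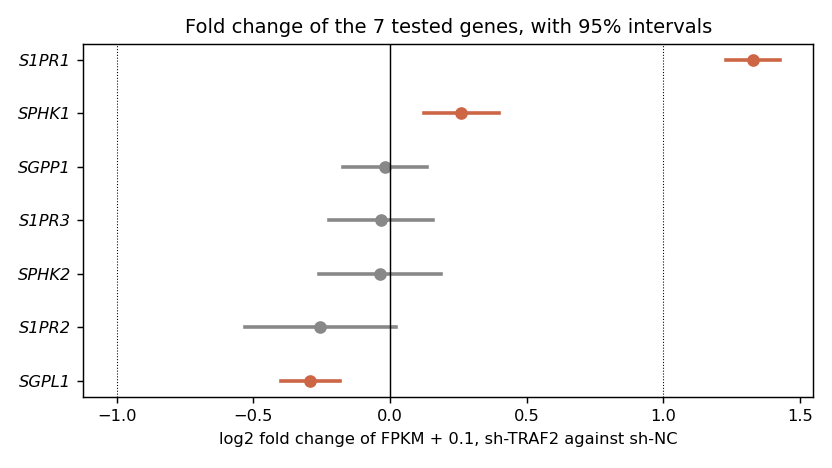
Points are the log2 fold changes (sh-TRAF2 against sh-NC) of the 7 tested S1P genes and lines their 95% intervals from limma; coloured genes had an adjusted p under 0.05 and dotted lines mark -1 and 1. The intervals of S1PR1 and SPHK1 lie above 0, that of SGPL1 below 0, and those of S1PR2, S1PR3, SPHK2 and SGPP1 cover 0.

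FPKM is a level per length, so the 9 genes can be placed in order within a group. In sh-NC, SPHK1 was highest, followed by SGPL1 and S1PR1, whose sample ranges overlapped, then SGPP1 and SPHK2. S1PR2 and S1PR3 came next with overlapping ranges, and S1PR5 and SPNS2 were last, also overlapping. In sh-TRAF2, S1PR1 was highest, above SPHK1 in all samples, while SGPL1, SGPP1 and SPHK2 kept their order below them. S1PR3 and S1PR2 again overlapped, and S1PR5 lay above SPNS2. The kinase and the lyase moved apart: the log2 ratio of SPHK1 to SGPL1 FPKM was 0.75, 0.92 and 0.59 in the sh-NC samples and 1.22, 1.42 and 1.28 in the sh-TRAF2 samples. The SPHK1 level was thus 1.68 times that of SGPL1 in sh-NC and 2.47 times in sh-TRAF2. The groups did not overlap (exact permutation p = 0.1). Every sh-TRAF2 sample was above every sh-NC sample for SPHK1 and below every one for SGPL1. The ratio therefore had to separate the groups, and its test adds nothing to the results of the single genes. This ratio is of transcripts and does not measure how much S1P is made or split.

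Spread between replicates differed among the genes. The coefficient of variation was 3.69% and 2.97% for S1PR1 in sh-NC and sh-TRAF2, and 4.02% and 3.21% for SGPL1. S1PR2 varied by 6.84% in sh-NC and 17.5% in sh-TRAF2, the widest spread among the tested members. SPHK2 varied by 13.6% in sh-NC and 5.20% in sh-TRAF2. The low counts of S1PR5 and SPNS2 gave coefficients of 86.0% and 173.2% in sh-NC.

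Promoter sequence is shown for S1PR1 and SPHK1, the members whose RNA rose. RefSeq (GRCh38.p14) gives windows of 300 bases, from 250 before to 50 after a start site, for 7 of the 9 genes, 12 windows in all. Motifs of factors downstream of TNF receptors or of cyclic AMP were searched on both strands: AP-1 (TGANTCA), CRE (TGACGTCA) and the NF-kappaB motif. The S1PR1 window, chr1:101236769-101237068 on the plus strand, held none of them. The SPHK1 window at chr17:76382954-76383253, also on the plus strand, held an AP-1 match that begins 6 bases before the start site and is in capitals.

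S1PR1 promoter window: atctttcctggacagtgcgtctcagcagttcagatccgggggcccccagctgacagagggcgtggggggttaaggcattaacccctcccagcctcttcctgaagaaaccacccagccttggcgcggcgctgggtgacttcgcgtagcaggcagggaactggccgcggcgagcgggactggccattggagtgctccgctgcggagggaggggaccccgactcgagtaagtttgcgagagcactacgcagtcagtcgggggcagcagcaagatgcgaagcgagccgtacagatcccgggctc
SPHK1 promoter window: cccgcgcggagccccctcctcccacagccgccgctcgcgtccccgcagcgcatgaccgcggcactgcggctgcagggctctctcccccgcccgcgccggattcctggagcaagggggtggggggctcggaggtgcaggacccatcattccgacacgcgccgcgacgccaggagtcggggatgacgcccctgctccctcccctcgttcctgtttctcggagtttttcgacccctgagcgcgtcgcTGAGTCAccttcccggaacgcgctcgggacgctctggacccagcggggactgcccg

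Another SPHK1 window, chr17:76385028-76385327, held an AP-1 match 71 bases before its start site, and the third SPHK1 window held none. AP-1 matches were found in 7.71% of the 35116 windows of all genes. The S1PR2 window, chr19:10231282-10231581 on the minus strand, began with a CRE match, which 1.85% of windows hold. No window of S1PR3, S1PR5, SPHK2 or SGPL1 held any of these letters, and the NF-kappaB motif, found in 5.91% of all windows, was in none of the 12. The motifs found did not overlap each other. A match describes the letters in the window and was not tested for binding.

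The genes around these 9 are given by list, beside the 23.7% of all tested genes that were higher and the 20.9% that were lower. Of 17 ceramide synthesis genes, which feed the pathway, 13 were tested, 3 were higher, 3 lower and 7 did not pass (46.2% called, beside 44.6% of all genes). ORMDL1 and ORMDL3, inhibitors of serine palmitoyltransferase at the entry to the pathway, fell by 0.38 and 0.45 on the log2 scale (adjusted p = 2.42e-04 and 3.36e-04 from limma). CERS2, the ceramide synthase for very long acyl chains, went from 104.7 ± 1.14 to 121.5 ± 1.82 FPKM (SD, n = 3; log2 fold change 0.21, adjusted p = 7.81e-04). Without sh-NC replicate 1, 1 gene of this list was higher in place of 3.

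Ceramide and sphingosine turnover, which releases and uses up sphingosine, had 14 of 19 genes tested, with 4 higher, 4 lower and 6 that did not pass (57.1% called, beside 44.6% of all genes). SGMS1, a sphingomyelin synthase, went from 1.80 ± 0.0255 to 3.21 ± 0.284 FPKM (SD, n = 3), with a log2 fold change of 0.79 (adjusted p = 2.12e-04 from limma). PSAP, the precursor of the saposins that help lysosomal enzymes break down sphingolipids, fell by 0.24 on the log2 scale, and SMPD4, a neutral sphingomyelinase, rose by 0.23 (adjusted p = 2.29e-04 and 0.00221). Other removal and transport of S1P had 7 of 10 genes tested, with 2 higher, 3 lower and 2 that did not pass (71.4%, or 5 of 7 genes, beside the same 44.6%). ABCC1, a transporter able to export S1P, rose by 0.50 on the log2 scale, from 16.5 ± 0.701 to 23.3 ± 1.498 FPKM (SD, n = 3; adjusted p = 3.08e-04 from limma). PLPP3, a lipid phosphatase that acts on S1P outside the cell, fell by 0.55, and ABCA1, a lipid exporter, fell by 0.44 (adjusted p = 0.00134 and 0.00185).

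Of the carriers of the receptors' signal, 4 of 16 tested genes were higher, 4 lower and 8 did not pass (50% called, beside 44.6% of all genes). RAC1, a GTPase activated downstream of S1PR1, rose by 0.33 on the log2 scale, from 177.3 ± 3.93 to 223.2 ± 5.74 FPKM (SD, n = 3; adjusted p = 1.38e-04 from limma). GNAI2, an inhibitory G protein subunit to which S1PR1 couples, rose by 0.45, from 65.7 ± 4.17 to 89.8 ± 1.12 FPKM (adjusted p = 1.89e-04). GNA11, a subunit of the Gq class, rose by 0.33 (adjusted p = 6.51e-04). The 4 lower genes were ARHGEF1, ARHGEF11, ARHGEF12 and ARRB2, with log2 fold changes from -0.38 to -0.20. GNAI1 and GNAI3, also inhibitory G protein subunits, did not pass (adjusted p = 0.277 and 0.256 from limma). Receptors for lysophosphatidic acid, the related lysolipid, and its enzyme autotaxin (ENPP2) were nearly all too low: of 7 genes only LPAR2 was tested, with a log2 fold change of -0.40 (adjusted p = 0.0579 from limma). No gene of these 5 lists passed both thresholds, and the list medians ran from -0.06 to 0.01 for the 4 lists with more than 1 tested gene.

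**Figure D5:**
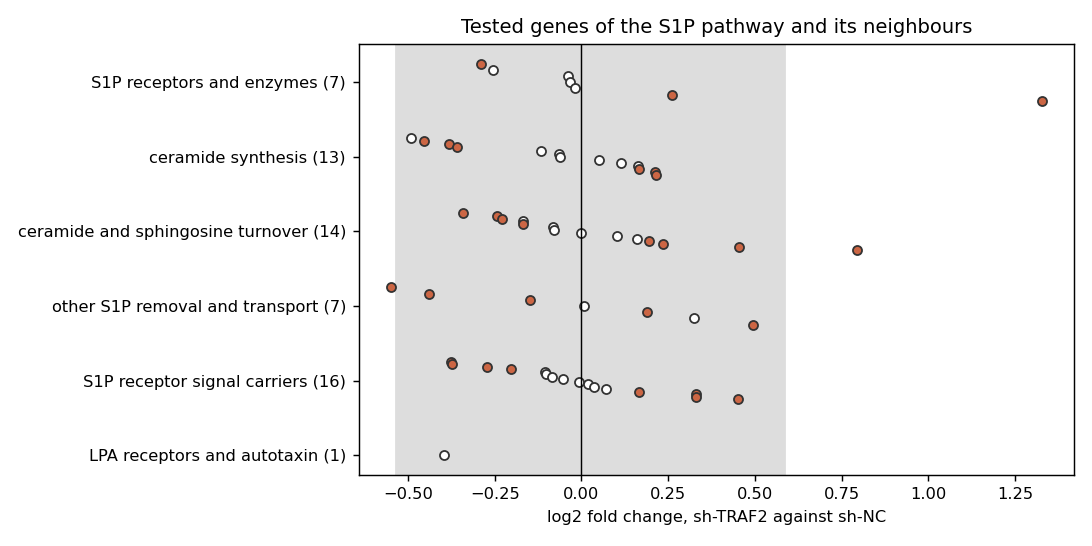
Each point is a tested gene, placed by its log2 fold change (sh-TRAF2 against sh-NC, horizontal axis) and by list, with the number tested in brackets; filled points had an adjusted p under 0.05 and the grey band holds 90% of all tested genes, from -0.53 to 0.59. S1PR1 (1.33) lies to the right of every gene of the other lists, of which SGMS1 (0.79) is the highest.

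Markers were read to see which cells the RNA came from. VIM, NES, CD44, EGFR, SOX2 and SOX9, from the list of glioma and astroglial markers, were each present at 4.82 FPKM or more in every sample, while GFAP was at most 1.62 and S100B and OLIG2 were at or near 0. S1PR1 and SPNS2 are prominent in endothelial cells, so that list stands beside them: PECAM1, CDH5, TEK and VWF were at most 0.0818 FPKM in any sample, and KDR was at 3.24 to 4.25. The 5 endothelial markers in the table summed to 3.36 to 3.42 FPKM in sh-NC and 3.67 to 4.37 in sh-TRAF2, and only KDR was high enough to test (log2 fold change 0.22, adjusted p = 0.0495 from limma). Of the leukocyte markers PTPRC was at or near 0 and CD68 did not pass (adjusted p = 0.788), with sums of 16.3 to 17.1 in sh-NC and 15.4 to 17.8 in sh-TRAF2. Oligodendrocyte markers, read because of S1PR5, summed to at most 0.0616 FPKM. Of the neuron markers RBFOX3 was at or near 0 and SYT1 fell by 0.86 on the log2 scale (adjusted p = 1.95e-05 from limma). SNAP25, another neuron marker and below the filter, was at 0.201, 0.383 and 0.307 FPKM in sh-NC and at 0.487, 0.703 and 0.604 in sh-TRAF2, so that its groups did not overlap and the sh-TRAF2 values were the higher ones. SLC17A7 was at most 0.0639 FPKM in any sample. The 9 glioma and astroglial markers in the table summed to 1490 to 1563 FPKM in sh-NC and 1825 to 1869 in sh-TRAF2. Most of that sum was VIM, at a mean of 1242 FPKM in sh-NC and 1582 in sh-TRAF2. NES and GFAP were higher and EGFR lower past both thresholds. The GFAP groups overlapped, and its means were low, at 0.467 FPKM in sh-NC and 1.18 in sh-TRAF2. The part of the glioma, neuron and KDR differences in the S1PR1 and SPHK1 results was not tested.

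The genes whose log2(FPKM + 0.1) followed that of S1PR1 most closely over the 6 samples included ZNF45, a zinc finger protein (Pearson r = 0.99997), and EHD4, a protein of endocytic recycling (r = 0.9999). For SGPL1 they were RFX7, a transcription factor (r = 0.9987), XIAP, an inhibitor of caspases (r = 0.9983), and CYB5B, a cytochrome of the outer mitochondrial membrane (r = 0.9982). With 3 samples in each of 2 separate groups, these values mostly reflect the difference between the groups, and r exceeded 0.95 for 9.72% of tested genes with S1PR1 and 6.47% with SGPL1. ZNF45, for example, was at 3.52, 3.62 and 3.41 FPKM in sh-NC and at 6.998, 6.70 and 6.88 in sh-TRAF2.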

How the data were processed

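U251 cells with sh-NC and with sh-TRAF2 were sequenced, 3 samples each. OE Biotech prepared the libraries (VAHTS Universal V6 kit) and processed the reads. The authors deposited 1 table of FPKM with a column for each sample, and all 6 columns were matched to samples by their labels. The submitters' processing notes name HISAT2, HTSeq, DESeq2 and R 3.2.0. The genome build, annotation and strand setting are not given in the sources used here.

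From these values, sh-TRAF2 was compared with sh-NC in limma 3.58.1 (R 4.3.3; lmFit, eBayes with a trend, two-sided) on log2(FPKM + 0.1). Genes whose mean FPKM was 0.5 or more entered the fit (11870 genes), with Benjamini-Hochberg adjustment over all of them and calls at an adjusted p under 0.05. The filter drops S1PR5 and SPNS2, and the pseudocount pulls low genes towards 0. Single shares and ratios had an exact permutation test over the 20 assignments of samples to groups. Whole reads were recovered from the steps of the FPKM values for all 23002 genes (in simulated data, exactly for 97.7% of 1980 genes). For 2643 genes with a value in 1 sample only, the lowest count was taken. Limits of detection are 3 reads and cover counting error only.

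Named genes are the 9 members, TRAF2, the 3 genes of each list with the smallest adjusted p, and for the 2 members with the smallest adjusted p the 3 genes of highest correlation. S1PR4, the markers with values and the signal carriers given as lower or as not passing were named beside these. One gene that the rule selects is left out of the text. The members, lists and rules were chosen with earlier results of these data known. CERS3, CHI3L1, CLDN5, AIF1, CD3E and MAG were on the lists but were not found by symbol among the measured genes, so they have no values here. Gene positions and transcripts are from GENCODE 29 (GRCh38), which gave transcripts for 96.2% of tested genes, and promoters from RefSeq (GRCh38.p14). Other settings tried were pseudocounts of 1 and 0.01, filters at 0 and at a mean FPKM of 1, TPM, quantile normalization, replicate number as a blocking term, eBayes with no trend, limma-voom on the recovered reads of 14130 genes (mean 10 or more), and each sample left out. Summaries used Python 3.11.15 with pandas 2.3.3 and numpy 2.4.6, exact tests scipy 1.17.1, and plots matplotlib 3.10.9.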

Additional observations from a re-analysis of the deposited data

How the results depend on the processing

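The rise of S1PR1 (log2 fold change 1.29 to 1.35), the rise of SPHK1 (0.20 to 0.31) and the fall of SGPL1 (-0.32 to -0.26) kept their direction and call under every alternative run. Of 105 recomputed log2 fold changes of the tested S1P genes, 98 kept direction and call. The filters, the replicate block and eBayes without a trend leave the log2 fold change unchanged, so they could alter the call only. The 48 recomputed shares and ratios kept their direction, which alone was compared. For them the replicate block returns the main difference by construction, as do the recovered reads for the ratios. S1PR2 was called lower without sh-TRAF2 replicate 2 (-0.39, adjusted p = 0.019 from limma) and with the replicate block (-0.26, adjusted p = 0.0443), which made 2 S1P genes lower in place of 1. Deviations of same-numbered samples correlated at -0.081, 0.072 and 0.073, and those of differently numbered samples at -0.141 to 0.067. Deviations within a group cancel out, so these values depend on each other. The same-numbered values did not share a sign, and whether the replicate numbers pair the samples was not tested. The block changed no other call among the tested S1P genes, TRAF2 and the genes named by rule from the pathway lists and by correlation. The cell type markers were not refitted under the alternatives. Without 1 sample, S1PR2 ran from -0.39 to -0.15, SPHK2 from -0.14 to 0.057 (0.0055 without sh-TRAF2 replicate 2, 0.057 without sh-NC replicate 2), SGPP1 from -0.074 to 0.030 (0.030 and 0.016 without these same samples) and S1PR3 from -0.10 to 0.033 (0.033 without sh-NC replicate 1). SPHK2, SGPP1 and S1PR3 did not pass the test in any fit. Of all tested genes, 117 were higher and 87 lower past both thresholds, against 46 and 41 with a pseudocount of 1 and 239 and 174 with limma-voom. Without 1 sample these counts ran from 95 to 163 and from 79 to 95, and the genes called by adjusted p alone from 2206 to 2729 higher and 1956 to 2327 lower. LPAR2 passed with eBayes without a trend (-0.40, adjusted p = 0.0402), the turnover list had 2 genes lower with no filter, and the cause of these changes was not tested. S1PR5 and SPNS2 are limited by depth, at 24 and 3 recovered reads in all 3 sh-NC samples together. These are the smallest whole numbers that give the FPKM, so the true reads may be a multiple of them.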
